A study of Mus musculus with 15 samples.

Results

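The genes described here are 8 lysosomal cathepsins, Ctsl, Ctsb, Ctsz, Ctsh, Ctsf, Ctss, Ctsd and Ctsa, taken by name from the 23699 entries that each expression table lists. The set was chosen with its values known: Ctsl was selected on its FPKM, which was higher in Foxo knockout ALDH+ cells than in control ALDH+ cells under both cre drivers. That contrast is therefore given as a description, without a test. RNA was measured in 15 libraries of cells sorted from mouse islets, and the level of a gene is given as FPKM (fragments scaled by transcript length and library depth), rescaled between libraries. All sorted cells were positive for red fluorescent protein (RFP), which cre-mediated recombination switches on, and came from mice of a mixed 129JC57BL/6 background. Aldefluor, a fluorescent substrate of aldehyde dehydrogenase (ALDH), split them into ALDH- and ALDH+ cells.

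Control (Ctrl) mice were triple heterozygous for FoxO 1, 3 and 4 by the labels, so the controls carried mutant alleles too, while the study's text calls its controls wild-type. Knockout (KO) mice were triple KO for the same genes. There were 3 Ctrl ALDH-, 2 Ctrl ALDH+, 5 KO ALDH- and 5 KO ALDH+ libraries. Every group held libraries from 2 cre drivers. RIP-Cre, driven by the rat insulin promoter and active in β cells, gave Ctrl ALDH- libraries 1 and 2, Ctrl ALDH+ library 1 and KO libraries 1 to 3 of both populations. Pdx-Cre, active in pancreatic precursors, gave Ctrl ALDH- library 3, Ctrl ALDH+ library 2 and KO libraries 4 and 5 of both populations. The RFP label of Pdx-Cre mice can thus mark any cell of pancreatic descent and not only β cells. Islets were pooled from several animals per genotype. The labels give no age, and the paper states one for the sorted RIP-Cre mice alone. The labels also do not say which libraries came from separate animals, so p-values measure the spread between libraries.

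Cathepsins are the main proteases of the lysosome, the acidic compartment in which a cell degrades the cargo of endocytosis and autophagy. They are made as inactive precursors, carried to the lysosome mostly by mannose 6-phosphate receptors, and activated there by the acidic pH and by other proteases. Ctsl, Ctsb, Ctsz, Ctsh, Ctsf and Ctss are cysteine proteases of the papain family, held in check by cystatins. Ctsd is an aspartic protease and Ctsa a serine carboxypeptidase that also stabilises other lysosomal enzymes. In β cells the lysosome takes up surplus insulin granules, and Ctsl is known as one of the proteases that can cleave prohormones.

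The labels were first checked against the genes they name. Foxo1 lay between 12.1 and 19.3 FPKM in the 5 Ctrl libraries and between 0.0976 and 4.06 in the 10 KO libraries. Foxo4 lay at or below 1.29 FPKM throughout, and Foxo3 was between 10.04 and 31.1 FPKM in KO libraries, against 13.9 to 22.1 in Ctrl libraries. A level summed over a whole gene does not check the loss of a part of it, so these Foxo3 values say nothing about the allele. Aldh1a3, the enzyme the sort aims at, was at 0.483 to 4.20 FPKM in ALDH- and at 22.3 to 78.2 in ALDH+ libraries. Fragments per library, worked out from the width of the deposited confidence intervals, summed to between 7492010 and 10057827. Iapp, a β cell hormone, was at 32064 to 120637 FPKM, while the insulin genes were left out because their values were marked as failed or too deep. KO ALDH- library 5 and KO ALDH+ library 5, called KO 5 below, stood apart in Ctsl, and results that rest on them are also given without them.

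The 8 genes lie on 7 mouse chromosomes in the mm9 build that the files use, and only Ctsz and Ctsa share one. Ctsl covers chromosome 13 from 64464521 to 64471614, Ctsb chromosome 14 from 63741298 to 63764760 and Ctsz chromosome 2 from 174252994 to 174264493. Promoter windows of 300 bases (250 before to 50 after an annotated start, RefSeq on build GRCm38.p6) were found for 6 of the 8 genes in 7 windows. They were searched for the letters CACGTG, a palindrome and the core of the E-box that TFEB and its relatives recognise at many lysosomal genes. Windows of 4 genes held it, and 1 site of each is shown, with the E-box in capitals, because many lysosomal genes are known to be controlled through it. Each reads 5′ to 3′ on the strand of the gene.
Ctsl, chr13:64370740-64370767, minus strand: gcgttagaagcCACGTGctgatctaaat
Ctsd, chr7:142387909-142387936, minus strand: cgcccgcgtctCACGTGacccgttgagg
Ctsa, chr2:164833750-164833777, plus strand: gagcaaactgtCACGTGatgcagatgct
Ctsf, chr19:4855075-4855102, plus strand: accccgtggtcCACGTGcctcgcgtaaa

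The motif began 236 bases before the start for Ctsl, 98 for Ctsd, 12 for Ctsa and 79 for Ctsf. Ctsd and Ctsa each held 1 further copy in the window. The windows of Ctsz and Ctss had no match. Of the 10295 windows of genes tested here, 10.3% held the E-box. The forkhead motif GTAAACA, searched on both strands and bound by FoxO proteins, was in 2.54% of those windows and in none of the 7 cathepsin windows. A match is a run of letters and not evidence of binding, and the absence of one says only that the letters are not in the window.

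Ctsl was the most abundant of the 8 in all 15 libraries. Its level ran from 128 to 958 FPKM with a median of 279.8, while Ctsb ran from 104 to 336 with a median of 159.8. Ctsb, a protease that cuts both within proteins and from their ends, exceeded Ctsd (84.6 to 149 FPKM, median 107) in 14 of 15 libraries. Ctsd in turn exceeded Ctsa (20.5 to 39.1, median 35.3) in all 15. Ctsa was higher than Ctsz (8.85 to 74.0, median 25.1), a carboxypeptidase also named cathepsin X, in 9 of 15. Their order followed the cre driver, with medians of Ctsa and Ctsz at 34.55 and 23.48 FPKM in RIP-Cre and 36.75 and 54.28 in Pdx-Cre libraries. The exceptions were KO ALDH- library 1 (22.8 and 25.1) and KO ALDH+ library 4 (38.0 and 26.2). Ctsf followed at 6.05 to 17.3 FPKM. Ctsh, an aminopeptidase, was at 4.50 FPKM or less and rested on 54 fragments or fewer in every library, with 1 library listed at 0. Ctss, the cathepsin of antigen-presenting cells, was listed at 0 in 10 of 15 libraries and reached 1.84 FPKM, or 26 fragments, in Ctrl ALDH- library 1. A mean of at least 1 FPKM was asked of a gene to be tested, which 7 of the 8 met and Ctss did not.

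**Figure D1:**
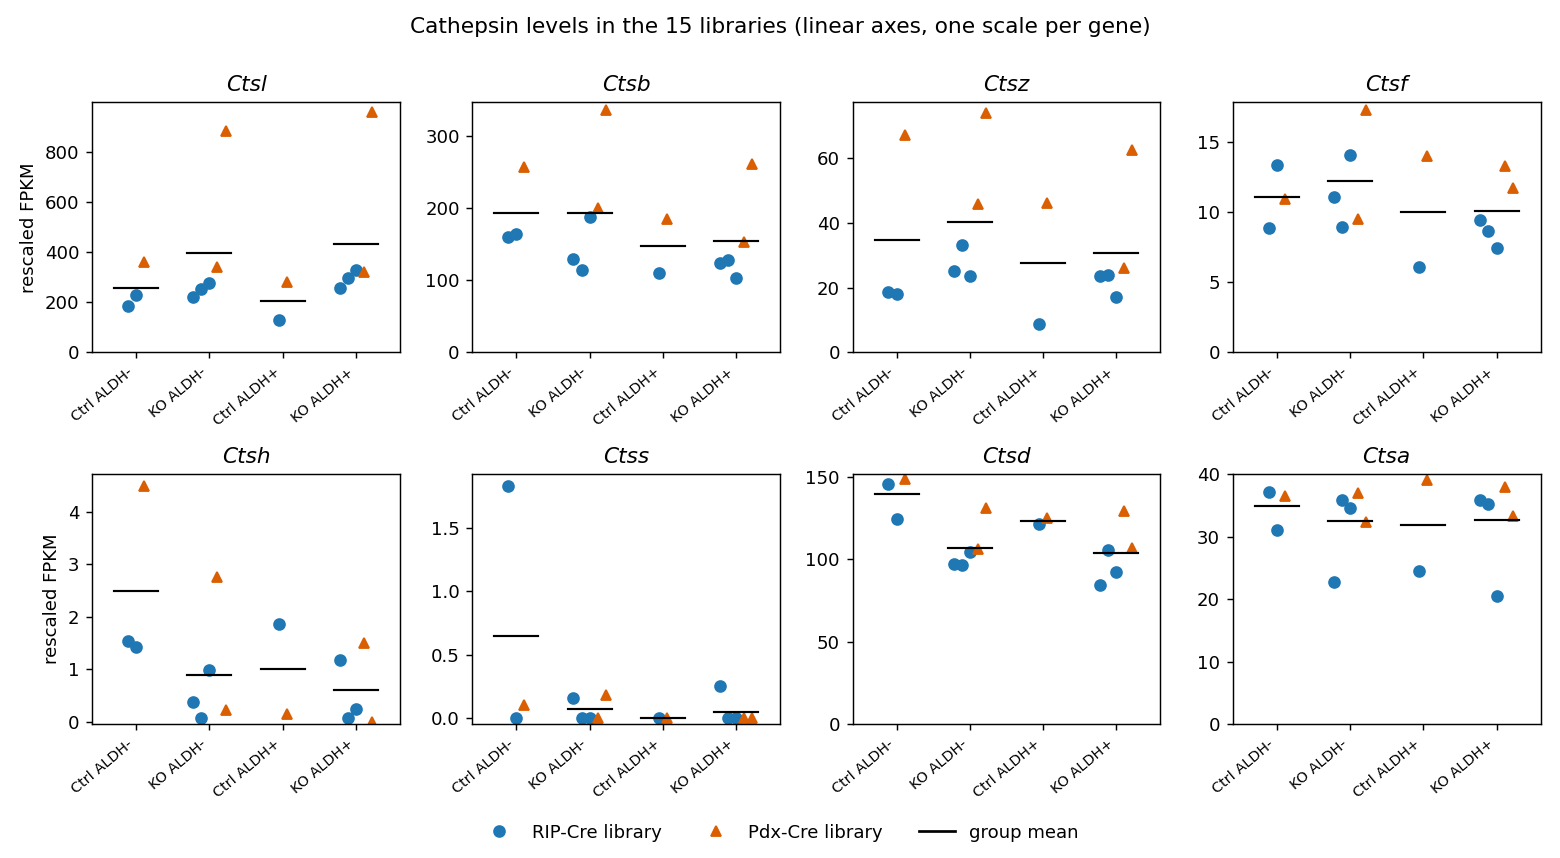
Rescaled FPKM of each cathepsin (linear y axes, one scale per gene) in the 15 libraries by group, with RIP-Cre libraries as circles, Pdx-Cre libraries as triangles and the group mean as a line. The triangles of Ctsl, Ctsb and Ctsz lie above the circles of their group, apart from 1 Ctsl library at 322 FPKM in KO ALDH+ cells, and the 2 highest Ctsl values are 884 and 958.

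Ctsl in ALDH+ cells is the contrast that chose the set. In RIP-Cre mice its level was 128 FPKM in the Ctrl library and 258, 296 and 328 in the KO libraries. In Pdx-Cre mice it was 279.8 FPKM in the Ctrl library and 322 and 958 in the KO libraries. All KO libraries were above the Ctrl library of their own driver, although the Pdx-Cre Ctrl library lay above the lowest RIP-Cre KO library. The fitted difference was 1.09 on the log2 scale (SE 0.35), or 2.13-fold, and 0.81 (SE 0.22) without both KO 5 libraries. Every KO library was above the Ctrl library of its driver for 10.6% of the 11253 genes tested, and Ctsl was the only member among them. No gene passed an adjusted p of 0.05 in this contrast by limma, where 743 (6.6%) had an unadjusted p under 0.05. Even Foxo1, 6.1-fold lower in KO cells, had an adjusted p of 0.201 by limma. The study's own test, on read counts and with controls it calls wild-type, does list genes below 0.05, Foxo1 among them. It also lists Ctsl as higher in KO ALDH+ cells, with an adjusted p just above 0.05. The KO and Ctrl groups as wholes did not overlap for 8.23% of genes and overlapped for each cathepsin. The other members differed less in the same fit: Ctsz by 0.54 (SE 0.34), Ctsd by -0.24 (SE 0.16), Ctsh by -0.26 (SE 0.57), and Ctsb, Ctsa and Ctsf by 0.07 to 0.12.

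Leaving out the RIP-Cre Ctrl library or the Pdx-Cre Ctrl library, each the only one of its kind among ALDH+ cells, gave 1.02 and 1.16 for Ctsl. The same omissions turned the direction of Ctsh (0.69 and -1.17), of Ctsf (-0.30 and 0.52) and of Ctsz (-0.02 and 1.07). For Ctsl, sampling error was small beside the spread of its values, as it rested on 2222.8 to 17548.9 fragments per library. Ctsz rested on 103 to 839, Ctsf on 105 to 305 and Ctsh on 0 to 54 fragments. Sampling error was therefore larger for these genes, most of all for Ctsh.

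Ratios within a library do not depend on how libraries are scaled to each other. Ctsl made up 33.3, 39.4 and 40.7% of the summed FPKM of the 8 cathepsins in Ctrl ALDH- libraries and 32.0 and 40.6% in Ctrl ALDH+ libraries. In KO ALDH- libraries 1 to 5 its share was 43.7, 46.7, 43.0, 45.9 and 59.9%. In KO ALDH+ libraries 1 to 5 it was 48.0, 49.5, 57.6, 47.1 and 66.8%. The order in ALDH+ cells restates in part the values on which Ctsl was selected. In ALDH- cells the highest Ctrl share was 40.7% and the lowest KO share 43.0%. The choice did not name these cells, but their values were known when it was made. How many genes show such a gap in a share was not counted. The ratio of Ctsl to Ctsb was 1.17, 1.39 and 1.40 in the Ctrl ALDH- libraries and 1.71, 2.21, 1.47, 1.69 and 2.63 in the KO ALDH- libraries. No Ctrl value reached the lowest KO value, a pattern that 0.693% of tested genes showed in their ratio to Ctsb. The gap between the groups, 1.40 against 1.47, was narrower than the spread within either group, and no test was made on the ratio. The ratio of Ctsl to Ctsd did overlap, at 1.28, 1.84 and 2.43 in Ctrl ALDH- and 2.29, 2.62, 2.65, 3.21 and 6.74 in KO ALDH- libraries. In ALDH+ cells the ratio of Ctsl to Ctsb was 1.17 and 1.51 in Ctrl and 2.07 to 3.66 in KO libraries.

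**Figure D2:**
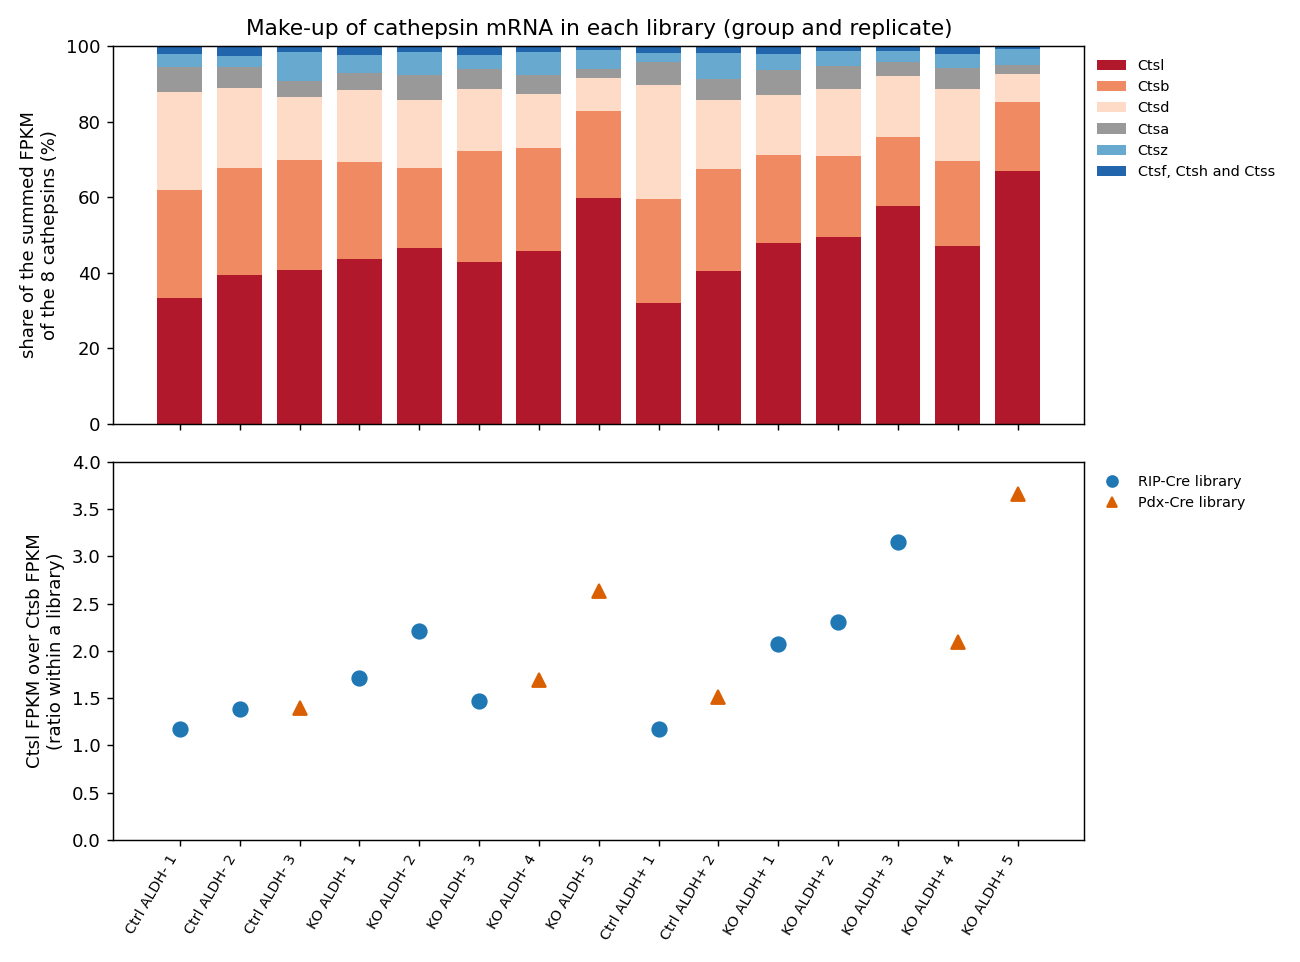
Upper panel, share of each cathepsin in the summed FPKM of all 8 (%), and lower panel, Ctsl FPKM over Ctsb FPKM, for each of the 15 libraries (x axis, group and replicate; circles RIP-Cre, triangles Pdx-Cre). The ratio is 1.17 to 1.51 in the Ctrl libraries and 1.47 to 3.66 in the KO libraries.

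The share of Ctsd moved the other way. It was 16.8 to 26.0% in Ctrl ALDH-, 18.2 and 30.3% in Ctrl ALDH+, 8.89 to 19.1% in KO ALDH- and 7.45 to 18.9% in KO ALDH+ libraries. Its lowest shares belonged to both KO 5 libraries, in which Ctsl was highest. Shares of one sum are tied to each other, so a larger Ctsl share alone lowers the others. Ctsa held 2.20 to 6.68% and Ctsz 2.21 to 7.56% of the sum over all 15 libraries.

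The cre driver comparison was the one in which cathepsins passed the test. Levels of Ctsz, Ctsl and Ctsb were higher in Pdx-Cre than in RIP-Cre libraries, by 2.50-fold, 2.00-fold and 1.72-fold in a model with the 4 groups and the driver. These 3 of 7 tested members passed an adjusted p of 0.05 by limma, and none was lower. Of all tested genes, 9.73% passed in either direction and 5.68% were higher. Ctsl was selected on ALDH+ values that this comparison also uses, so its test is not free of the choice. The differences of all 7 members were above 0, with a median of 0.39 on the log2 scale, against -0.01 over all genes tested.

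For Ctsz, RIP-Cre libraries lay at 18.7 and 18.1 FPKM in Ctrl ALDH-, 25.1, 33.3 and 23.5 in KO ALDH-, 8.85 in Ctrl ALDH+ and 23.5, 23.9 and 17.1 in KO ALDH+ cells. Pdx-Cre libraries lay at 67.1 FPKM in Ctrl ALDH-, 45.8 and 74.0 in KO ALDH-, 46.2 in Ctrl ALDH+ and 26.2 and 62.4 in KO ALDH+ cells. Each Pdx-Cre library was above each RIP-Cre library of its own group, and 5 of 6 were above every RIP-Cre library. The difference was 1.32 on the log2 scale (SE 0.22, adjusted p = 0.00147), and an exact permutation of the driver labels within the 4 groups gave p = 0.00167, the smallest that 600 arrangements allow. Both tests count ALDH- and ALDH+ libraries as independent. For RIP-Cre mice the paper describes sorting both populations from the same dispersed islets, and the labels do not say which libraries share islets. Such sharing could make the driver p-values over all 15 libraries too small, which was not tested. The fits in ALDH- or ALDH+ libraries alone, given below, do not combine the populations.

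Ctsb showed the same order. Its RIP-Cre libraries lay at 159.8 and 164 FPKM in Ctrl ALDH-, 130, 114 and 188 in KO ALDH-, 109.9 in Ctrl ALDH+ and 125, 128 and 104 in KO ALDH+ cells. Its Pdx-Cre libraries lay at 258 FPKM in Ctrl ALDH-, 201 and 336 in KO ALDH-, 185 in Ctrl ALDH+ and 154 and 262 in KO ALDH+ cells. Within each group all Pdx-Cre values exceeded all RIP-Cre values, although the ranges of the drivers overlapped across groups, as they did for every member (1.94% of genes did not overlap). The difference was 0.78 on the log2 scale (SE 0.15, adjusted p = 0.00459, exact permutation p = 0.00167).

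Ctsl followed with 1 exception. Its RIP-Cre libraries lay at 186 and 229 FPKM in Ctrl ALDH- and at 223, 253 and 277 in KO ALDH- cells, beside the ALDH+ values given above. Its Pdx-Cre libraries lay at 361 FPKM in Ctrl ALDH- and at 341 and 884 in KO ALDH- cells. In KO ALDH+ cells Pdx-Cre library 4, at 322 FPKM, was below RIP-Cre library 3, at 328. The difference was 1.00 on the log2 scale (SE 0.22, adjusted p = 0.0102, exact permutation p = 0.00333). Both tests include the ALDH+ libraries on which Ctsl was selected. In ALDH- libraries alone the difference was 1.01 (SE 0.27, adjusted p = 0.098 by limma).

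Ctsd, at 84.6 to 146 FPKM in RIP-Cre and 106 to 149 in Pdx-Cre libraries, differed by 0.22 (SE 0.10) and did not pass after adjustment (adjusted p = 0.17). Each of its Pdx-Cre libraries was nevertheless above each RIP-Cre library of the same group, and the exact permutation test gave p = 0.005 without adjustment over genes. That order held for Ctsb, Ctsz and Ctsd and for 3.04% of all tested genes. Ctsf differed by 0.39 (SE 0.18, adjusted p = 0.195), Ctsa by 0.26 (SE 0.15, adjusted p = 0.306) and Ctsh by 0.28 (SE 0.36, adjusted p = 0.684). Exact permutation gave p = 0.0733 for Ctsf, 0.158 for Ctsa and 0.49 for Ctsh. These are 7 tests, and their p-values are not adjusted.

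**Figure D3:**
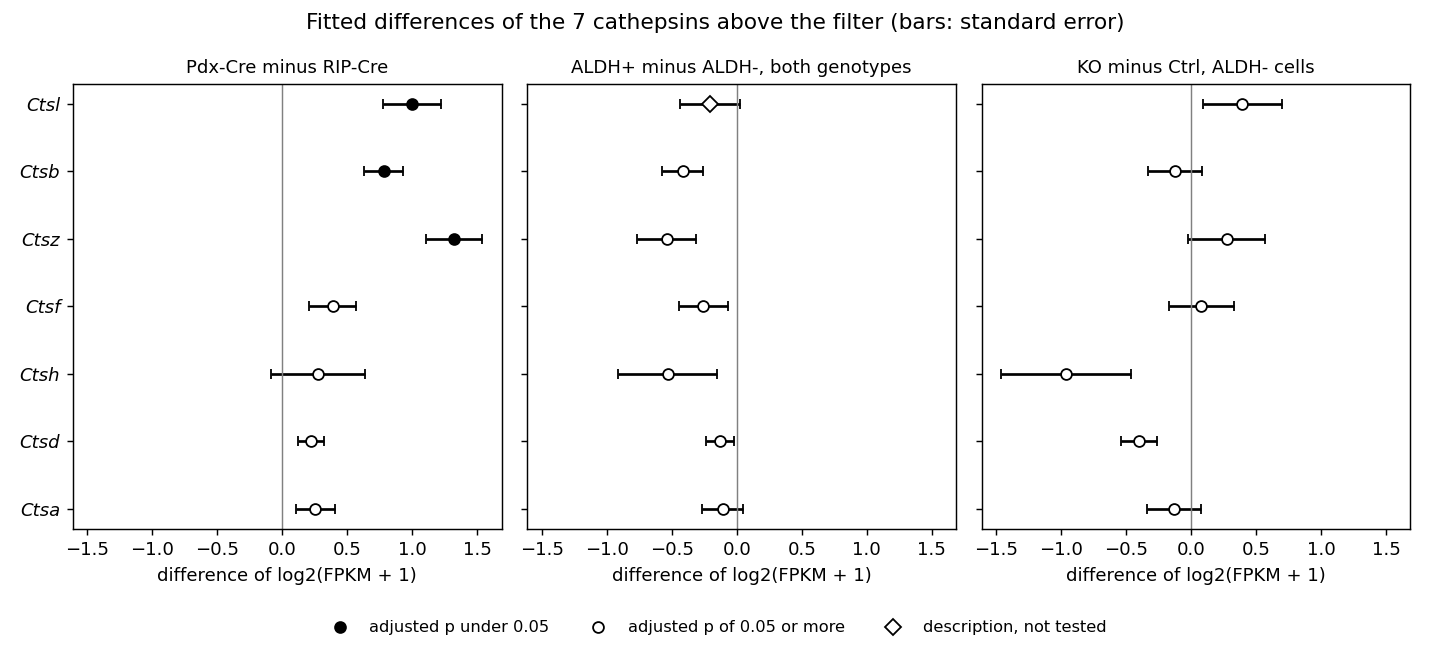
Fitted differences (x axis, difference of log2(FPKM + 1), bars one standard error) of the 7 cathepsins that passed the filter, between cre drivers, between ALDH+ and ALDH- cells and between KO and Ctrl ALDH- cells. Filled points, adjusted p under 0.05, appear in the first panel alone, for Ctsl at 1.00, Ctsb at 0.78 and Ctsz at 1.32, and the diamond is a description without a test.

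Both KO 5 libraries are Pdx-Cre libraries. Without them the difference was 1.16 for Ctsz (adjusted p = 0.0243), 0.55 for Ctsb (adjusted p = 0.0484) and 0.57 for Ctsl (adjusted p = 0.0556), so that Ctsl no longer passed. In ALDH- libraries alone the 3 differences were 1.34, 0.80 and 1.01, and in ALDH+ libraries alone 1.30, 0.75 and 0.98. These sizes hardly moved, but with fewer libraries only Ctsz in ALDH- cells passed (adjusted p = 0.0217). In KO libraries alone the differences were 0.99, 0.82 and 1.03 with adjusted p of 0.0519, 0.0611 and 0.0932. These 4 alternatives were chosen after seeing the data.

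**Figure D4:**
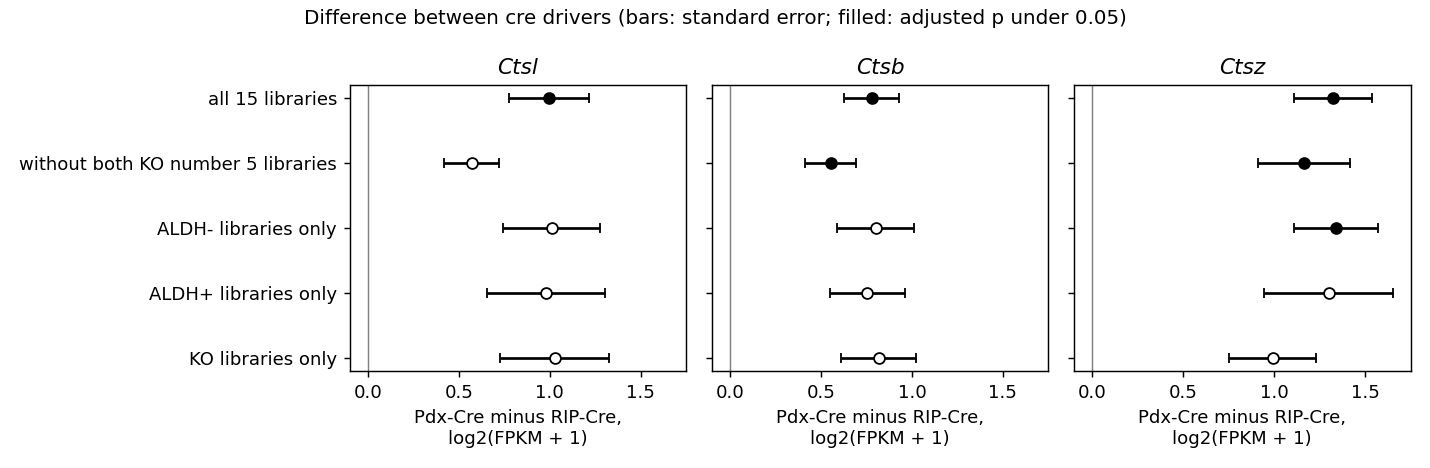
Pdx-Cre minus RIP-Cre difference of log2(FPKM + 1) for Ctsl, Ctsb and Ctsz (x axes, bars one standard error) in all 15 libraries and in 4 subsets of them, with filled points for an adjusted p under 0.05. All 15 points lie above 0, between 0.55 and 1.34.

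The 2 drivers also differed in markers of other cells, and in bulk RNA a smaller number of cells of one type cannot be told apart from less RNA per cell. Of 8 usable β cell markers, 6 were lower in Pdx-Cre libraries and none higher, among them the glucose transporter Slc2a2 by 7.32-fold (adjusted p = 3.39e-06). The 3 tested α cell markers were all higher, Gcg (glucagon) by 8.73-fold, as were 2 of 3 δ and PP cell markers, Sst (somatostatin) by 5.12-fold and Ppy (pancreatic polypeptide) by 4.97-fold, and 2 of 7 acinar markers. Summed FPKM ran from 155 to 1025 in RIP-Cre and from 278 to 39060 in Pdx-Cre libraries for the α list, from 597 to 1744 and from 883 to 24651 for the δ and PP list, and from 0 to 5.05 and from 0.286 to 1419 for the acinar list. Their part in the cathepsin differences was not tested.

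Macrophages are rich in cathepsins, so their 15 markers were read in full. Of 5 tested, 3 were higher in Pdx-Cre libraries: Cd68, a lysosomal membrane protein found outside macrophages as well, by 2.75-fold, and the class II genes H2-Ab1 and Cd74 by 3.30-fold and 3.49-fold. The sum of the list was 24.7 to 41.6 FPKM in RIP-Cre and 49.6 to 179 in Pdx-Cre libraries, most of it Cd68. Emr1 and Aif1 were at 0 in all 15 libraries, Ptprc reached 0.0234 FPKM and Csf1r 0.939, and Ctss was at 0.182 FPKM or less in every Pdx-Cre library. Lyz1, Lyz2, C1qb and C1qc reached 0.0767, 0.693, 1.43 and 0.107 FPKM. C1qa was at 0.742 to 4.65 FPKM and Fcer1g at 0 to 4.73. Laptm5 was highest in KO ALDH- library 5 (1.57 FPKM) and Tyrobp in KO ALDH+ library 5 (1.35 FPKM). The part of macrophages in the cathepsin values was not tested. Endothelial and stellate markers summed to 4.37 FPKM or less and 1.15 or less. Duct markers summed to between 99.3 and 159.5 FPKM, with medians of 123.8 in RIP-Cre and 124.5 in Pdx-Cre libraries. Of 3 tested, only Krt19 was higher in Pdx-Cre libraries, by 3.73-fold. The median difference of the 3 was -0.02 on the log2 scale.

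The 6 Pdx-Cre libraries varied among themselves in these genes. Ctrl ALDH- library 3 had Gcg at 39048, Sst at 14852 and Ctrb1, an acinar protease, at 8.87 FPKM, with Ctsl at 361. KO ALDH- library 4 had Gcg at 16579, Sst at 9365 and Ctrb1 at 0.134 FPKM, with Ctsl at 341. KO ALDH- library 5 had Gcg at 10059, Sst at 8699 and Ctrb1 at 349.5 FPKM, with Ctsl at 884. These 3 libraries were far above the RIP-Cre range in both hormones, and above its highest value, 328 FPKM, in Ctsl. Ctrl ALDH+ library 2 had Gcg at 5824, Sst at 2982 and the highest Ctrb1, 1223 FPKM, with the lowest Ctsl of the 6, 279.8. KO ALDH+ library 4 had Gcg at 269, Sst at 755 and Ctrb1 at 0.286 FPKM, all within the RIP-Cre range, as were its Ctsl (322), Ctsb (154) and Ctsz (26.2). KO ALDH+ library 5 had Gcg at 608 and Sst at 1176, also within that range, but Ctrb1 at 611 and Ctsl at 958 FPKM. The order of the 6 libraries in Ctsl was not that in Gcg, Sst or Ctrb1. Ctsz was highest in KO ALDH- library 5 and Ctrl ALDH- library 3 (74.0 and 67.1 FPKM) and lowest in KO ALDH+ library 4 (26.2). Cd68 was also highest in the first 2 (157 and 107) and lowest in the last (34.5). KO ALDH+ library 5 was above Ctrl ALDH+ library 2 in Ctsz (62.4 and 46.2) and below it in Cd68 (60.6 and 70.8). What these orders reflect was not tested.

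**Figure D5:**
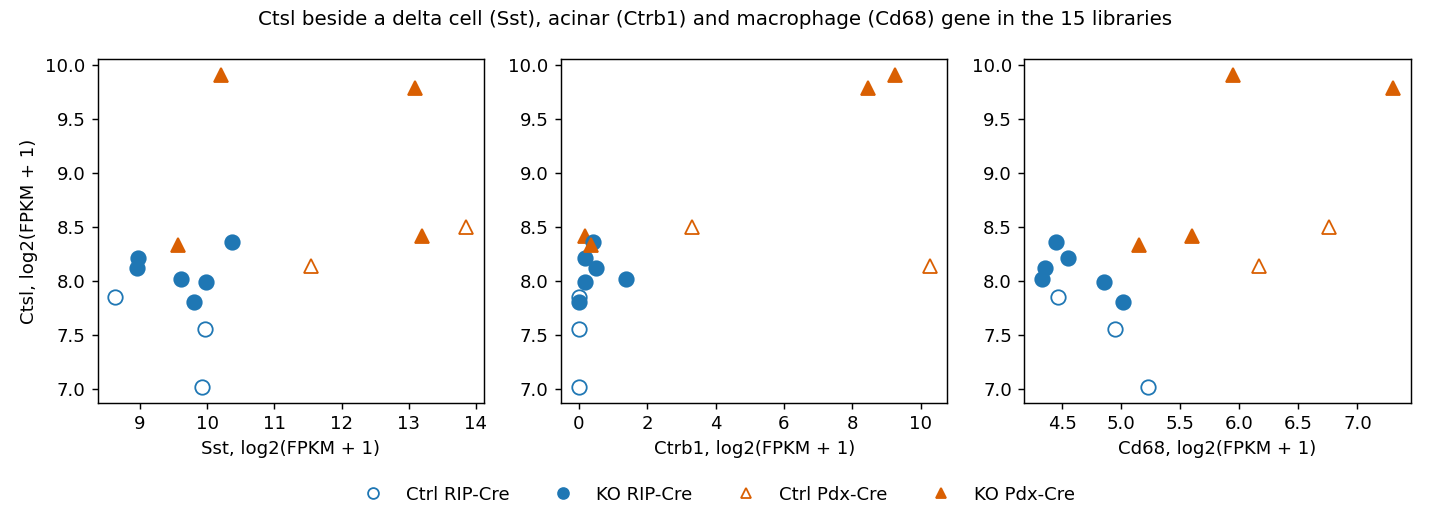
Ctsl against Sst, Ctrb1 and Cd68 in each library, all as log2(FPKM + 1), with circles for RIP-Cre, triangles for Pdx-Cre, filled for KO and open for Ctrl. The 2 highest triangles, KO 5 at 884 and 958 FPKM of Ctsl, have Ctrb1 at 349.5 and 611 FPKM, while the triangle with the highest Ctrb1 (1223) has Ctsl at 279.8.

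The second comparison was between ALDH+ and ALDH- cells. Ctsl was not tested in it, because KO ALDH+ libraries chose it, and its direction was not the same in both genotypes: it differed by -0.56 (SE 0.38) in Ctrl and by 0.14 (SE 0.26) in KO cells, or -0.21 (SE 0.23) over both. None of the other 6 members passed an adjusted p of 0.05 by limma, where 5.99% of tested genes did, and Ctsb and Ctsz had an unadjusted p under 0.05, as had 20.8% of tested genes. All 6 were lower in ALDH+ cells, with a median difference of -0.34 on the log2 scale, against -0.02 over all genes tested. Over all genes the difference rose with the log of gene length (r = 0.391), so short genes tended to be lower. With that trend removed Ctsz differed by -0.40, Ctsb by -0.53, Ctsh by -0.44, Ctsf by -0.21, Ctsa by -0.16 and Ctsd by -0.08. Ctsz was lower by 1.45-fold (log2 -0.54, SE 0.23, adjusted p = 0.182) and Ctsb by 1.33-fold (log2 -0.42, SE 0.16, adjusted p = 0.137). The study's own test, on read counts and in the cells it calls wild-type, does list Ctsb as lower in ALDH+ cells. Without Ctrl ALDH+ library 1 the difference of Ctsz was -0.25 and without Ctrl ALDH+ library 2 it was -0.80, with adjusted p between 0.0848 and 0.751 over single omissions. The libraries of each group are listed above, and their ranges overlapped for both genes. Exact permutation of the ALDH labels within genotype and driver gave p = 0.0264 for Ctsz and 0.05 for Ctsb, and within genotype alone 0.342 and 0.227.

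Within each stratum of genotype and driver the mean of Ctsz was lower in ALDH+ cells. It was 8.85 against 18.4 FPKM in Ctrl RIP-Cre, 46.2 against 67.1 in Ctrl Pdx-Cre, 21.5 against 27.3 in KO RIP-Cre and 44.3 against 59.9 in KO Pdx-Cre libraries. The mean of Ctsb was likewise lower in all 4, at 109.9 against 162, 185 against 258, 119 against 144 and 208 against 269 FPKM in the same order. Ctsd, whose differences were smaller, also had a lower mean in all 4 strata, as had 16.3% of tested genes. Set side by side by number, although equal numbers were not shown to pair the KO libraries, Ctsz was lower in ALDH+ cells in 5 of 5, where 11.8% of genes kept one direction in all 5, Ctsb was lower in 4 of 5 and Ctsl higher in 4 of 5.

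By genotype, 0 of 6 members passed in Ctrl (1.22% of tested genes passed) and 0 of 6 in KO cells (0.0178% passed). In both cases none had an unadjusted p under 0.05 by limma, where 14.3% of tested genes in Ctrl and 13.1% in KO cells did. The difference of Ctsz was -0.67 (SE 0.37) in Ctrl and -0.41 (SE 0.26) in KO cells, and that of Ctsb was -0.53 (SE 0.26) and -0.30 (SE 0.18). The test of the difference between genotypes called no member and none of the 11253 genes (0%). Unadjusted p was at least 0.374 for the 6 members in it, and 476 genes (4.23%) had one under 0.05. Ctsf, Ctsh, Ctsd and Ctsa differed over both genotypes by -0.26 (SE 0.19), -0.53 (SE 0.38), -0.13 (SE 0.11) and -0.11 (SE 0.16). Beside these values, Ppy was 4.27-fold lower in ALDH+ cells (adjusted p = 0.0131), and none of the tested β cell, α cell or macrophage markers passed by limma, with 0, 2 and 1 at an unadjusted p under 0.05. Summed α markers were at 155 to 1025 FPKM in KO ALDH+ and 661 to 16600 in KO ALDH- libraries. Their part in the cathepsin values was not tested.

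The third comparison, KO against Ctrl in ALDH- cells, used no library named in the choice of Ctsl, and so all 7 members were tested. The values of these libraries were nevertheless known when the set was chosen. None passed an adjusted p of 0.05 by limma, where 0.0178% of tested genes did, and only Ctsd had an unadjusted p under 0.05, as had 5.78% of genes. Foxo1, a deleted gene and 5.81-fold lower in KO cells, did not pass either (adjusted p = 0.0604 by limma). A member that did not pass is thus not shown to be unchanged. Ctsl was at 186, 229 and 361 FPKM in Ctrl libraries 1 to 3 and at 223, 253, 277, 341 and 884 in KO libraries 1 to 5. The groups overlapped, with the Pdx-Cre Ctrl library above 4 of the 5 KO libraries. The difference was 0.39 on the log2 scale (SE 0.31, adjusted p = 0.963, exact permutation within driver p = 0.367).

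Ctsd was at 146, 124 and 149 FPKM in Ctrl ALDH- and at 97.2, 96.4, 105, 106 and 131 in KO ALDH- libraries. One KO library, KO 5, lay above the lowest Ctrl library, and within each driver all KO values were below all Ctrl values. The level was 1.32-fold lower in KO cells (log2 -0.40, SE 0.14, unadjusted p = 0.0105, adjusted p = 0.774). Exact permutation within driver gave p = 0.0333, the smallest that its 30 arrangements allow, and p = 0.0536 without regard to driver. Every KO library was below the Ctrl libraries of its driver for Ctsd and Ctsh and for 3.8% of tested genes, while no member had groups without overlap (3.1% of genes did). In ALDH+ cells Ctsd was at 121 and 125 FPKM in Ctrl and at 84.6, 106, 92.6, 129 and 107 in KO libraries, a description with overlapping values.

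Ctsh differed by -0.96 on the log2 scale (SE 0.50, adjusted p = 0.869) from 1.55, 1.42 and 4.50 FPKM in Ctrl and 0.385, 0.0702, 0.992, 2.76 and 0.221 in KO ALDH- libraries. The KO values rest on 1 to 43 fragments. Ctsz differed by 0.27 (SE 0.30), Ctsb by -0.12 (SE 0.21), Ctsa by -0.13 (SE 0.21) and Ctsf by 0.08 (SE 0.25), with adjusted p of at least 0.976. Over the 7 members 3 differences were above and 4 below 0, with a median of -0.12. No marker of another cell type passed in this comparison by limma, and 1 of the δ and PP list and 1 of the macrophage list had an unadjusted p under 0.05.

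Other genes of the same compartment were read from lists of cathepsin activators and inhibitors, sorting receptors, lysosomal membrane proteins, other hydrolases, further cathepsins and autophagy. Of 83 such genes tested, 9 were higher and 2 lower in Pdx-Cre libraries, which is 13.3% against 9.73% of all genes, with a median difference of 0.12. Inhibitors of cysteine cathepsins were among them: Cstb, cystatin B, was 2.01-fold (adjusted p = 0.00756) and Cst3, cystatin C, 1.55-fold (adjusted p = 0.0268) higher. Of 9 sorting genes, the receptor M6pr rose 1.43-fold (adjusted p = 0.00631), while Gnptab, which makes the mannose 6-phosphate tag, and the sorting receptor Sort1 were 1.61-fold and 1.35-fold lower (adjusted p = 0.0136 and 0.0419).

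Of 12 membrane proteins, Cd63 and Scarb2 rose 1.59-fold and 1.41-fold, and of 33 other hydrolases only Gla, α-galactosidase A, did, by 2.07-fold (adjusted p = 0.00236). The autophagy genes Bnip3, a mitophagy receptor, Wipi1 and Gabarap were 4.29-fold, 2.13-fold and 1.40-fold higher among 22. The other hydrolases had a median difference of 0.05, beside 0.39 for the cathepsins.

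Between ALDH+ and ALDH- cells 5 of the 83 genes were lower and none higher, which is 6.02% against 5.99% of all genes. They were Cst3 (log2 -0.84, adjusted p = 0.0115), the membrane proteins Laptm4a (1.55-fold, adjusted p = 0.00513), Cd63 (1.97-fold, adjusted p = 0.00635) and Lamp1 (1.46-fold, adjusted p = 0.00809), and Gabarap (1.51-fold, adjusted p = 0.0123). None of the 33 other hydrolases or 9 sorting genes passed by limma, with 7 and 4 at an unadjusted p under 0.05. The ceramidase Asah1 differed by -0.42 (adjusted p = 0.0634), the cholesterol carrier Npc2 by -0.47 (adjusted p = 0.0845) and the receptor M6pr by -0.27 (adjusted p = 0.182). The study's own test, on read counts in the cells it calls wild-type, does list Npc2 as lower in ALDH+ cells. It also lists Cstb and the autophagy gene Gabarapl1 as lower. None of the 83 passed between KO and Ctrl ALDH- cells by limma, with 2 hydrolases, 1 sorting gene and 1 autophagy gene at an unadjusted p under 0.05, where the peptidase Tpp1 differed by 0.52 (adjusted p = 0.805) and Cst3 by -0.47 (adjusted p = 0.857). Of the factors that control lysosomal genes, Tfe3 was tested and differed by -0.13 to 0.09 in these 3 comparisons, while Tfeb, Mitf and Tfec were below the filter.

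Of 15 further cathepsin genes listed, Ctso was at 14.8 to 34.5 FPKM (median 22.7), above Ctsf and Ctsh. Its differences were -0.04 between drivers, 0.01 between ALDH states and -0.42 between genotypes in ALDH- cells (adjusted p of at least 0.899 in all 3). Ctsk had a median of 0.735 FPKM and reached 4.75. Ctsc and Ctsw were at 0 in 10 and 9 libraries, and the other 11 were at 0 in all 15.

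The genes most like Ctsl over the 15 libraries, by Pearson's r of log2(FPKM + 1) among those tested, were Cfb (r = 0.971), 1600029D21Rik (0.936), C3 (0.922), Rnase4 (0.920) and Sod2 (0.916). Cfb and C3 encode complement proteins and Sod2 the mitochondrial superoxide dismutase. The points share libraries, drivers and depth, and KO 5 gave the highest values, with Cfb at 264 and 377 FPKM against a median of 15.3. Without both KO 5 libraries r over 13 libraries was 0.883 for Cfb, 0.735 for 1600029D21Rik, 0.692 for C3 and Rnase4 and 0.751 for Sod2. Among the cathepsins r with Ctsl was 0.806 for Ctsz, 0.748 for Ctsb, 0.552 for Ctsf, 0.189 for Ctsa, 0.0299 for Ctsd and -0.343 for Ctsh. Without KO 5 it was 0.741 for Ctsz and 0.443 for Ctsb.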

How the data were processed

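Poly-A RNA of 15 sorted cell libraries was sequenced. Per the submitters' processing notes the authors used bcl2fastq 1.8.4, TopHat2 2.0.4 and build mm9, and the deposited tables hold 1 FPKM value with a confidence interval per gene and library. The program and annotation that gave the FPKM values are not given in the sources used here. The study's own test was made on read counts, which were not used here. Fragments worked out from the interval width (2 standard errors each side) came within 0.02 of a whole number for 66.4% of values under 500 fragments, so no count test was run. Of 23699 lines, 712 with repeated symbols and 63 that failed or were too deep were left out, which left 22924 genes.

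FPKM values were scaled between libraries by trimmed log ratios without weights (trimming 30% by ratio and 5% by mean level), and log2(FPKM + 1) was fitted with limma 3.58.1 (R 4.3.3), with a trend, on group and cre driver over all 15 libraries. Genes whose scaled FPKM averaged 1 or more were tested, two-sided, with Benjamini-Hochberg adjustment over 11253 genes and a threshold of 0.05. Fold changes are on the log2(FPKM + 1) scale, which understates changes of low genes. Exact permutation tests (two-sided) were made with scipy 1.17.1 and numpy 2.4.6. The scripts were tested on simulated data. Named genes were the 8 cathepsins, up to 3 called genes per direction of each list or, with none called, up to 2 with the smallest p, the 5 most correlated with Ctsl, and genes that check the labels; other genes named from the lists were chosen after their values were seen. The members and lists were chosen with earlier results of these data known. Alternatives changed the pseudocount (0.1), filter, scaling, driver term, libraries, replicate block and a trend with gene length.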

Additional observations from a re-analysis of the deposited data

Results flagged for a closer look

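In KO ALDH+ cells the Ctsl level of library 5, 958 FPKM, lay far above the other 4 libraries, with a gap to its nearest neighbour of 0.819 times the range of the group. Ctsa stood apart on the low side in KO ALDH+ library 3, at 20.5 FPKM, and in KO ALDH- library 1, at 22.8 FPKM. A library was picked out where its gap to the nearest other library exceeded Dixon's 95% critical value, and chance picks out about 1 in 20 groups, of which 14 were examined.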

How the results depend on the processing

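No cathepsin passed in the ALDH, genotype or interaction comparisons under any alternative run. The count of cathepsins between drivers was 3 without any 1 library, 1 in ALDH- libraries alone, 0 in ALDH+ and 0 in KO libraries alone, with 134, 74 and 257 genes passing and 357 without both KO 5 libraries. The 1095 genes that passed between drivers became 697 to 706 without Ctrl ALDH+ library 1 or 2, KO ALDH- library 5 or KO ALDH+ library 5, and the range over single omissions was 697 to 1266. Between ALDH states the 674 genes became 185 without the driver term, 156 in RIP-Cre libraries alone, 230 with the length trend removed and 406 without KO 5. The split of 250 higher and 424 lower became 95 and 90 without the driver term and 123 and 107 with the length trend removed. Single omissions gave 3 to 831, the 3 without Ctrl ALDH+ library 1. In Ctrl cells the 137 genes became 0 without the driver term, 449 with the compared groups alone, 20 in RIP-Cre libraries alone and 0 with the length trend removed, and single omissions gave 0 to 245. In KO cells the 2 genes became 1 with no filter, 1 with the compared groups alone, 0 in RIP-Cre libraries and 1 without KO 5, with 1 to 3 over omissions. Between genotypes in ALDH- cells the 2 became 1 with unscaled values, 1 without the driver term and 1 in RIP-Cre libraries, with 0 to 4 over omissions. The interaction called 16 genes with no filter, 3 in RIP-Cre libraries and 1 without KO 5, with 0 to 3 over omissions. The cause was not tested.

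KO libraries with equal numbers correlated at 0.0917 to 0.406 after group means were removed, and 9 of 10 correlated best with their own number. With the driver removed too the correlations were -0.0438 to 0.0704. As 1 pair was under 0.1 and the labels name no shared animal or batch, the numbers were not taken as pairs. With a replicate block on equal numbers 22 genes passed between ALDH states, 18 higher and 4 lower, and 2 in Ctrl cells. With the replicate block within driver 262 and 1 passed, and with the length trend removed as well 17 and 0. Under the 2 blocks Ctsz differed by -0.13 and -0.58, Ctsb by -0.24 and -0.40 and Ctsl by 0.01 and -0.15. With 2 Ctrl ALDH+ libraries, differences that rest on them have wide errors.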
